A study of Homo sapiens with 4 samples.

Results

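Transcripts of 10 dual-specificity MAP kinase phosphatases (DUSP1, DUSP2, DUSP4, DUSP5, DUSP6, DUSP7, DUSP8, DUSP10, DUSP14 and DUSP16) were followed in U937 cells after shikonin. All 10 genes had at least 1 probe set that the platform annotation assigns to that gene alone, out of 19775 genes with such a probe set. They were read by 22 probe sets, of which 21 were bright enough to be tested. U937 is an established human line of monocytic character derived from a lymphoma. One group of 2 samples had received DMSO, the solvent, and the other group of 2 samples shikonin, a naphthoquinone pigment of gromwell roots, at 100 nM for 3 h. No time is given for the DMSO cells, and nothing in the labels says that the 2 samples of a group came from separate cultures, so p-values cover the spread between these samples only, which could be technical.

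Dual-specificity MAP kinase phosphatases remove phosphate from both the threonine and the tyrosine of the activation loop of ERK, JNK and p38 kinases, which switches these kinases off. Many of the genes are themselves switched on by the kinases that their products inactivate, so they form negative feedback loops, and in monocytes and macrophages they limit cytokine output. The family divides into inducible nuclear enzymes (DUSP1, DUSP2, DUSP4 and DUSP5), cytoplasmic enzymes that prefer ERK (DUSP6 and DUSP7), enzymes that prefer JNK and p38 (DUSP8, DUSP10 and DUSP16) and small atypical enzymes without the kinase-binding domain (DUSP14).

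The arrays were alike, with median intensities of 60.5 to 63.7. Log2 values of arrays of the same group correlated at 0.980 over the tested probe sets and those of different groups at 0.972 to 0.974. The labelled cell type was checked on markers. Of 13 monocytic or myeloid markers 11 had a probe set of their own, and 10 of these exceeded the 40th percentile of all 4 arrays (34.8 to 37.4), among them ELANE, CTSG and LYZ, granule and lysozyme genes of the myeloid line. MPO (40.8 to 99.8), CSF1R (110 to 153) and ITGAM (193 to 221) were much dimmer than ELANE (19369 to 21275) or CTSG (25366 to 28279). They were no brighter than COL1A1, a fibroblast marker (187 to 227), or CD79A, a B lymphocyte marker (161 to 309). CD14, a marker of mature monocytes, lay below the 40th percentile on all 4 arrays. The summed intensity of the 4 T lymphocyte markers was 134 to 179 in DMSO and 102 to 151 after shikonin, against 83229 to 88762 and 81482 to 88041 for the myeloid markers. Of the T lymphocyte markers CD2 lay above the 40th percentile on all 4 arrays (41.0 to 62.2), CD3D on 3, CD3E on 2 and CD3G on 0. The sums in DMSO and after shikonin were 293 to 312 and 214 to 317 for 2 B lymphocyte markers, 130 to 205 and 119 to 167 for 4 epithelial markers, and 296 to 301 and 298 to 366 for 3 fibroblast markers. Of these, 1 B lymphocyte, 1 epithelial and 2 fibroblast markers lay above the 40th percentile on all 4 arrays. No tested marker of any list was called. The number of arrays limits the precision of all values.

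On the brightest probe set of each gene, shikonin was followed by lower transcript levels of DUSP6, DUSP16 and DUSP2, and no member rose. DUSP4 was called lower on 2 of its 3 probe sets but not on the brightest, and DUSP16 on 1 of its 4. With each gene represented by its brightest probe set, 3 of the 10 members fell at a limma adjusted p under 0.05 and none rose, where 6.65% of all 13554 tested genes were called lower and 5.05% higher. At an unadjusted p under 0.05, 5 members were lower and 1 was higher, against 1985 and 1804 of all 13554 tested genes. Without DMSO 2 the members called were 1, DUSP6, and without shikonin 1 they were 2, DUSP6 and DUSP8. The median log2 change was -0.26 over the members and 0.00304 over all genes. In 8 members both shikonin arrays lay below both DMSO arrays, and in 1 member, DUSP5, both lay above. Over all genes, 27.3% were apart in the downward and 28.2% in the upward direction. Of the 21 tested member probe sets, 7 were called lower and 0 higher, where 5.28% and 3.92% of all probe sets were called. The 7 were all 3 of DUSP6, 2 of the 3 of DUSP4, the only one of DUSP2 and 1 of the 4 of DUSP16. Calls depended on brightness. When the genes were put into 4 equal classes from dim to bright, 5 members lay in class 2, in which 5.73% of genes were called lower, 4 in class 3 (11.6%) and 1 in class 4 (8.91%). These calls needed limma's trend of variance on brightness. When the trend was replaced by 1 prior for all probe sets, 0 members and 0 genes in all were called by limma (smallest adjusted p 0.0764), while 4 members and 2417 genes had an unadjusted p under 0.05.

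**Figure D1:**
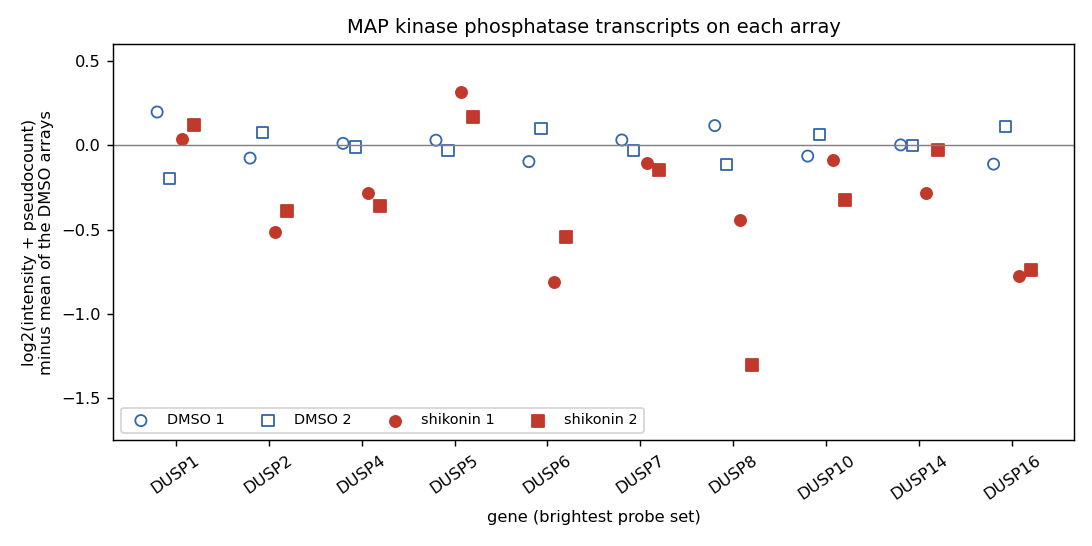
Values of the 10 phosphatase genes on each array, as log2(intensity + pseudocount) of the brightest probe set minus the mean of the 2 DMSO arrays; open symbols are DMSO and filled symbols shikonin arrays. The shikonin arrays of DUSP2, DUSP6 and DUSP16 lie well below their DMSO arrays, those of DUSP5 lie above, and those of DUSP1 lie among them.

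The promoters of the 3 members called lower on their brightest probe sets and of DUSP1, which was not called, are shown, since results turn on these genes. Each window is the 250 bases before the start in RefSeq (GRCh38.p14, minus strand), namely chr12:89352502-89352751 for DUSP6, chr2:96145441-96145690 for DUSP2, chr12:12562864-12563113 for DUSP16 and chr5:172771196-172771445 for DUSP1. They are printed 5′ to 3′, with matches to 7 searched motifs in capitals.
DUSP6: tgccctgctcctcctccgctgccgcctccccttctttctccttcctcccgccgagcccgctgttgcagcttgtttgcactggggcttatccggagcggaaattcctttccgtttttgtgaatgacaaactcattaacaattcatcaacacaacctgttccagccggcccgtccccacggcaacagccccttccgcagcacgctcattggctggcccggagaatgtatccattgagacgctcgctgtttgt
DUSP2: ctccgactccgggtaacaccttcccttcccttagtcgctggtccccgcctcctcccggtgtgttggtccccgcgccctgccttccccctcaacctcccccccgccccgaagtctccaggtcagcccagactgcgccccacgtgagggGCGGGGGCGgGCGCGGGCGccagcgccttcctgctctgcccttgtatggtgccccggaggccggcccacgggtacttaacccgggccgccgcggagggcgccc
DUSP16: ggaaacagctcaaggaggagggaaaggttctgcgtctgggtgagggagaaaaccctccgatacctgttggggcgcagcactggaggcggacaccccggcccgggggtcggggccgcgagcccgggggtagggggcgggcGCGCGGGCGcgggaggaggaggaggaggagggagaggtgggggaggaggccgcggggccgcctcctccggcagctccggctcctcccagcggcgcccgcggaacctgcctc
DUSP1: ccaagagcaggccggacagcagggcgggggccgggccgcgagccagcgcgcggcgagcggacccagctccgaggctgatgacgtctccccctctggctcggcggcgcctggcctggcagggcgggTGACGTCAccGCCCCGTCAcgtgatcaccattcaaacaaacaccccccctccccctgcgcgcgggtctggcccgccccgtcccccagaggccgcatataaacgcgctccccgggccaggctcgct

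The motifs were the AP-1 site (TGANTCA), the cAMP response element (TGACGTCA), the serum response CArG box, the ETS core (CCGGAA), the EGR site (GCGNGGGCG), the heat shock element (GAA, its reverse complement and GAA again, 2 bases apart) and the antioxidant response element (TGACNNNGC), each sought on both strands. Matches within a window did not overlap. DUSP2 held 2 EGR sites, whose first bases lie 103 and 93 bases before the start, and DUSP16 held 1, at 111 bases. DUSP14, which was not called, also held 1 EGR site (45 bases before the start). DUSP1 held 1 cAMP response element at 125 bases and 1 antioxidant response element at 115 bases, and DUSP8 held 2 cAMP response elements, at 118 and 74 bases. The windows of DUSP6, DUSP7 and both starts of DUSP10 held none of the 7. Over all 35114 promoters of this length, 8.41% held an EGR site, 1.65% a cAMP response element and 10.9% an antioxidant response element. The windows of DUSP2, DUSP16 and DUSP1 are rich in G and C (74.0%, 74.8% and 74.4%, against a median of 58.0% over all promoters), as are the letters of the EGR site, while that of DUSP6 is near the median (57.2%). A match is a run of letters and was not tested for binding. In all, 9 promoters of 8 members were searched. DUSP5 had no usable promoter sequence and DUSP4 was left out beforehand, so nothing is said of motifs in these members.

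DUSP6, the cytoplasmic phosphatase that closes a feedback loop on ERK, fell on each of its probe sets. On the brightest (208891_at) its intensities were 1704 and 1952 in DMSO and 1036 and 1246 after shikonin. The groups did not overlap, and both shikonin arrays lay below the lower DMSO array. The means were 1828 ± 175 and 1141 ± 148 (SD, n = 2 each), 1.60-fold lower on the log2(intensity + pseudocount) scale (log2 change -0.68, SE 0.11, 95% interval -0.92 to -0.44, limma adjusted p = 0.00539). A second probe set (208893_s_at) read 787 and 837 in DMSO and 495 and 454 after shikonin, a log2 change of -0.76 (limma adjusted p = 0.00320). The third (208892_s_at) read 1618 and 1268 against 1064 and 957, a change of -0.50 (limma adjusted p = 0.0321). The 3 probe sets thus put the fall between 1.42-fold and 1.70-fold. On 208891_at the log2 change stayed between -0.81 and -0.55 whichever array was left out. That of 208892_s_at was weaker without DMSO 1 (-0.33) or shikonin 2 (-0.43) than with all arrays (-0.50).

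DUSP7, the closest relative of DUSP6 in location and substrate, was not called. Its brighter probe set (213848_at) read 3112 and 2982 in DMSO and 2834 and 2753 after shikonin. The groups did not overlap but lay close together, with a log2 change of -0.12 (95% interval -0.27 to 0.020, limma adjusted p = 0.278). The interval leaves room for a fall of up to 0.27, which does not reach the change of DUSP6. The difference between DUSP6 and DUSP7 was not tested. The dimmer probe set (214793_at) changed by -0.26, and its arrays overlapped (259 and 368 in DMSO, 221 and 296 after shikonin). Its 95% interval, -0.74 to 0.21, does include the change of DUSP6. The change on 214793_at rested on single arrays, since it was -0.018 without DMSO 2, -0.059 without shikonin 1 and -0.51 without DMSO 1.

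Among the inducible nuclear enzymes, DUSP2, which is found mainly in immune cells, fell. Its intensities were 816 and 908 in DMSO and 599 and 656 after shikonin, with no overlap. That was 1.37-fold lower (log2 change -0.45, SE 0.11, 95% interval -0.69 to -0.21, limma adjusted p = 0.0298). The call was lost without DMSO 2 (log2 change -0.38, adjusted p 0.138) or without shikonin 1 (-0.39, 0.116), after quantile normalization (-0.41, 0.0531) and without the filter on dim probe sets (0.0586).

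DUSP4, a nuclear phosphatase of ERK and JNK that ERK signalling induces, depended on the probe set read. On the brightest (204015_s_at) it read 585 and 576 in DMSO and 476 and 450 after shikonin, a log2 change of -0.32 that was not called (95% interval -0.57 to -0.069, limma adjusted p = 0.111). On 204014_at it read 367 and 441 against 171 and 218. There it was 2.03-fold lower (log2 change -1.02, SE 0.18, limma adjusted p = 0.00862), and each fit without 1 array kept the call (adjusted p 0.00493 to 0.0453). The third probe set (226034_at) read 400 and 390 against 257 and 285, a change of -0.53 (limma adjusted p = 0.0486) whose call was lost whichever array was left out (0.0733 to 0.167). Both groups were apart on all 3 probe sets. With the mean of its probe sets in place of the brightest, DUSP4 was called lower (log2 change -0.62, limma adjusted p = 0.0152).

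DUSP5, a nuclear phosphatase that acts on ERK alone, had the highest log2 change of the members on the brightest probe sets, 0.24. It read 1331 and 1277 in DMSO and 1622 and 1466 after shikonin. The shikonin arrays both lay above the DMSO arrays, and the 95% interval ran from 0.052 to 0.43, but the gene was not called over the whole array (limma adjusted p = 0.111). DUSP1, the widely induced nuclear enzyme that restrains p38 and JNK, was not called either. It read 231 and 174 in DMSO and 206 and 219 after shikonin, so that the shikonin arrays fell between the DMSO arrays (log2 change 0.080, 95% interval -0.36 to 0.52, limma adjusted p = 0.856). The interval does not reach the log2 changes of DUSP2, DUSP6 and DUSP16. It does overlap the 95% interval of DUSP2 (-0.69 to -0.21), though not those of DUSP6 and DUSP16. The differences between these genes and DUSP1 were not tested. The direction of DUSP1 turned without DMSO 2 (-0.12), and without DMSO 1 its change was 0.28. On 226578_s_at DUSP1 read 153 and 84.5 against 150 and 185, a change of 0.51 with overlapping groups (limma adjusted p = 0.331). This was 0.12 without DMSO 2 and 0.91 without DMSO 1. Its probe set 201044_x_at, with intensities of 3.07 to 11.1, lay below the 40th percentile on every array and was not tested.

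**Figure D2:**
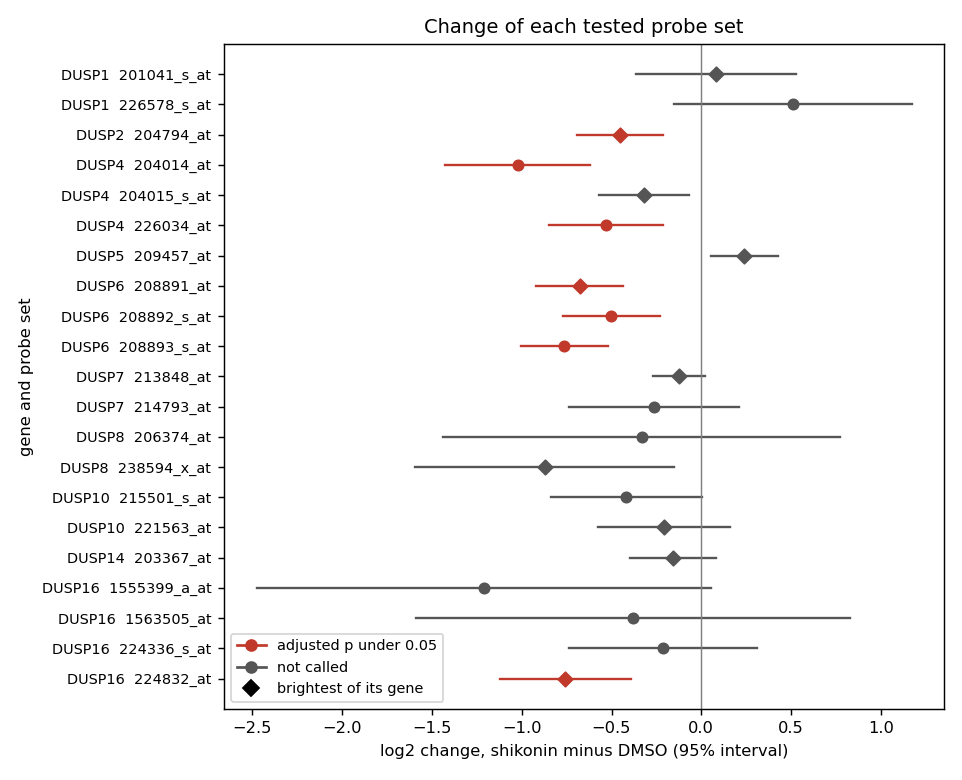
Log2 change of shikonin minus DMSO for the 21 tested probe sets of the 10 genes, with 95% intervals from limma; red marks an adjusted p under 0.05 and diamonds the brightest probe set of a gene. All 3 probe sets of DUSP6 lie between -0.76 and -0.50, those of DUSP4 spread from -1.02 to -0.32, and the dim ones of DUSP8 and DUSP16 have wide intervals.

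Of the phosphatases that prefer JNK and p38, DUSP16 fell. Its brightest probe set (224832_at) read 318 and 373 in DMSO and 197 and 202 after shikonin, with no overlap. It was 1.69-fold lower (log2 change -0.76, SE 0.16, 95% interval -1.12 to -0.39, limma adjusted p = 0.0209). The call was lost without DMSO 2 (log2 change -0.65, adjusted p 0.112), without shikonin 1 (-0.74, 0.0581) and with the mean of its probe sets (-0.64, 0.128). The 3 other probe sets of DUSP16 were dimmer and not called. Of these, 224336_s_at changed by -0.21 (146 and 152 in DMSO, 144 and 112 after shikonin) with both groups apart, and by -0.047 without shikonin 2. The intensities of 1555399_a_at were 96.4 and 52.7 against 12.0 and 46.7, and those of 1563505_at were 49.4 and 94.5 against 91.9 and 26.0. The latter 2 each had 1 array below the 40th percentile, and 1563505_at turned its direction without DMSO 2 (0.028) or shikonin 2 (0.37).

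On the brightest probe sets DUSP8 had the lowest log2 change of the members, -0.87, but on a probe set (238594_x_at) that can cross-hybridize. It read 171 and 144 in DMSO but 113 and 57.9 after shikonin, so the shikonin arrays were apart from DMSO and also far from each other. The change was not called (95% interval -1.59 to -0.15, limma adjusted p = 0.130). Its size rested on shikonin 2, since it was -1.30 without shikonin 1, where it was called (0.0429), and -0.44 without shikonin 2. The other probe set (206374_at) read 34.5 and 94.7 against 38.8 and 50.2, and its direction turned without DMSO 2 (0.29). DUSP10 was not called: its brighter probe set (221563_at) read 276 and 303 against 271 and 229, a change of -0.21 (95% interval -0.57 to 0.16). That change was -0.089 without shikonin 2 and -0.32 without shikonin 1. Its second (215501_s_at) read 280 and 247 against 172 and 220, a change of -0.42 (limma adjusted p = 0.212), and of -0.25 without shikonin 1. Both groups were apart on both probe sets of DUSP10.

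DUSP14, the small atypical member, read 945 and 943 in DMSO and 773 and 923 after shikonin. Shikonin 2 lay just below the DMSO arrays and shikonin 1 well below them, a log2 change of -0.16 (95% interval -0.40 to 0.082, limma adjusted p = 0.414). Without shikonin 1 the change was -0.031, and without shikonin 2 it was -0.28.

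**Figure D3:**
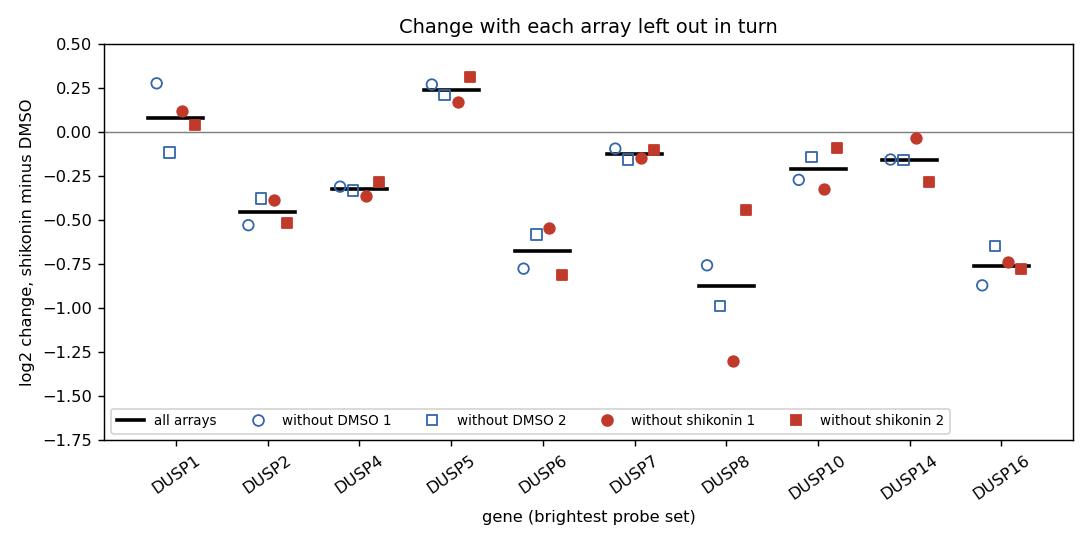
Log2 change of each phosphatase gene from all 4 arrays (black line) and with each array left out in turn (symbols). DUSP6 stays between -0.81 and -0.55, DUSP8 ranges from -1.30 to -0.44, and DUSP1 is the gene with values on both sides of 0.

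The genes around these phosphatases were grouped by role. The lists and members were chosen with earlier results of these arrays known, so the counts describe and support nothing further. Each count is to be read beside all 13554 tested genes, of which 6.65% were called lower and 5.05% higher. At an unadjusted p under 0.05, 1985 of all genes were lower and 1804 higher. Of 18 other and atypical dual-specificity phosphatases 14 were tested, of which 2 rose and none fell by limma (2 and 1 at an unadjusted p under 0.05), with a median log2 change of 0.13. DUSP23, a small phosphatase, read 366 and 374 in DMSO and 560 and 588 after shikonin (log2 change 0.62, limma adjusted p = 0.0125), and DUSP11, an RNA phosphatase, changed by 0.29 (limma adjusted p = 0.0483). DUSP11 lost its call whichever array was left out (adjusted p 0.0672 to 0.186) and with arrays centred on their medians (0.0909), and DUSP23 lost it without shikonin 2 (0.0557).

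Among 8 other phosphatases that act on MAP kinases 6 were tested, and 2 fell and 1 rose. Over all genes, 6.65% were called lower and 5.05% higher. PPM1B, a metal-dependent serine and threonine phosphatase, fell by 0.92 on the log2 scale on its brighter probe set (3914 and 3893 in DMSO, 2113 and 2012 after shikonin, limma adjusted p = 7.94e-05), while its other probe set changed by -0.035. PPM1A, of the same family, changed by -0.51 (limma adjusted p = 0.0157). None of its 5 other probe sets was called (-0.45 to 0.36), and the call was lost without DMSO 1 (0.0672) or shikonin 2 (0.0649). PPP2CB, a catalytic subunit of protein phosphatase 2A, changed by 0.29 (limma adjusted p = 0.0136) and lost the call without shikonin 1 (0.0799).

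Among the kinases themselves MAPK9 and MAP2K5 fell and none rose by limma (5 lower and 0 higher at an unadjusted p under 0.05). Of all genes 6.65% were called lower. Of 13 MAP kinases 9 were tested and 1 fell, MAPK9, which encodes a JNK (log2 change -0.40, limma adjusted p = 0.0110). Its second probe set fell too (-0.69), and the third did not pass (-0.20). Of 7 MAP kinase kinases 5 were tested and 1 fell, MAP2K5, the kinase upstream of ERK5. It read 1886 and 1783 in DMSO and 1329 and 1312 after shikonin (log2 change -0.47, limma adjusted p = 0.00584). Of its other tested probe sets 2 fell as well (-0.58 and -0.45), and a dim one (216765_at) changed by 1.72 without passing, so that the mean of its probe sets gave 0.055. The medians were -0.12 for the MAP kinases and -0.25 for the MAP kinase kinases.

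Transcripts that ERK signalling induces were mostly lower after shikonin. Of 21 such genes 20 were tested, and 14 fell and none rose by limma, where 6.65% and 5.05% of all genes did. At an unadjusted p under 0.05, 17 were lower and 0 higher, against 1985 and 1804 of all 13554 genes. The median log2 change was -0.76. EGR3, an immediate early zinc finger factor, read 1912 and 1716 in DMSO and 122 and 108 after shikonin, a change of -3.87 (limma adjusted p = 5.14e-07). SPRY2, a feedback inhibitor of receptor signalling to ERK, read 2556 and 2729 against 1280 and 1275, a change of -1.04 (limma adjusted p = 7.92e-05). MCL1, which protects from apoptosis, fell by 0.96 on the log2 scale on its brightest probe set (200797_s_at, limma adjusted p = 7.31e-05). Of its 5 other probe sets 2 fell (-0.82 and -0.60) and 3 were not called (-0.63 to -0.24). With _s_at and _x_at probe sets left out, MCL1 was not called (-0.35, limma adjusted p = 0.244). The other 11 genes that fell ran from -3.42 to -0.38. The difference between this list and the phosphatases was not tested. With probe sets ending in _x_at or _s_at left out, 8 of 15 tested genes of the list fell. So did 3 of the 9 phosphatases that remained, the same 3 as before, since DUSP1 has no other kind of probe set.

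Of 11 transcripts tied to p38 and JNK signalling 10 were tested, and 4 fell and 1 rose, with a median of -0.31. The shares over all genes were 6.65% lower and 5.05% higher. TNF, a cytokine, read 601 and 640 in DMSO and 197 and 186 after shikonin (log2 change -1.65, limma adjusted p = 1.89e-04). CXCL8, a chemokine, changed by -0.72 (limma adjusted p = 0.00565), and IL1B, a cytokine, by -0.87 (limma adjusted p = 0.00776). GADD45A, which binds and activates a kinase upstream of p38 and JNK, rose by 0.86 (limma adjusted p = 0.0135), a call lost without shikonin 1 (0.0666). Without _x_at and _s_at probe sets 1 of 8 tested genes fell. TNF and CXCL8 have no other kind of probe set and were not tested there.

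**Figure D4:**
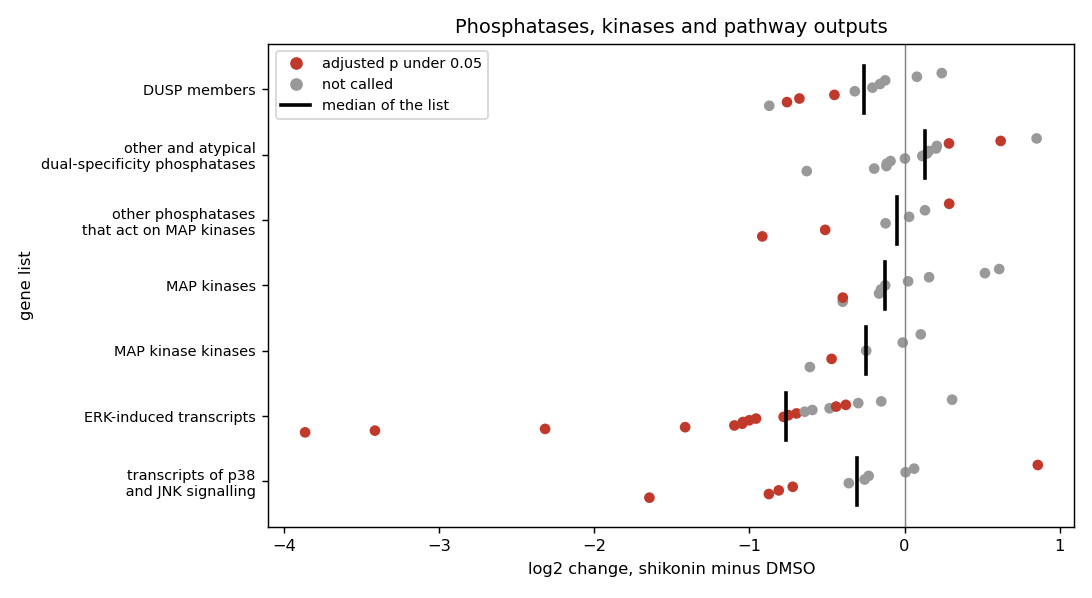
Log2 change of shikonin minus DMSO for each tested gene of 7 lists (brightest probe set, 1 point per gene; black bars are list medians and red marks an adjusted p under 0.05). The phosphatases, at a median of -0.26, lie near the MAP kinase kinases (-0.25) and the transcripts of p38 and JNK signalling (-0.31). The other dual-specificity phosphatases have the highest median (0.13) and the ERK-induced transcripts the lowest (-0.76).

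The genes whose 4 array values, each relative to the DMSO mean, lay nearest to those of DUSP6 were ZC3H12C, LOC105374690 and ZSWIM6, among 13553 other genes. Their Euclidean distances were 0.0757, 0.0785 and 0.0864 on the log2 scale. Their log2 changes were -0.67, -0.63 and -0.69, and ZSWIM6 alone of the 3 was called (limma adjusted p = 0.0184), a call lost without DMSO 2 (0.0963) or shikonin 1 (0.0648). With 4 arrays such a likeness is a description only.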

How the data were processed

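RNA from 4 samples was labelled with biotin after 3′-biased amplification and read on 1 Affymetrix U133 Plus 2.0 array each, per the labels' protocols. The values are the authors' deposited probe set intensities on a linear scale. How probes were summarised is not stated in the sources used here. From the values, each array was scaled to a common level (mean of 500.1 after removing 2% at each end), so changes are relative to the rest of the array. Of 54675 probe sets, 41097 had 1 gene symbol in the platform annotation, 1801 several and 11777 none listed. The 10 member symbols matched RefSeq by gene identifier.

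Intensities were taken as log2(intensity + 9.94), the pseudocount being the 20th percentile of all values, which understates changes of dim genes. Control probe sets and the dimmest 40% by mean log2 value were dropped, which kept 32768. Array medians differed by at most 0.0655, and no further normalization was applied. Shikonin was compared with DMSO in limma 3.58.1 (R 4.3.3) with a variance trend (2 residual and 7.10 prior degrees of freedom), two-sided, with p-values adjusted by Benjamini-Hochberg across those 32768 and called under 0.05. A gene stands for its brightest single-gene probe set, and all other member probe sets are given too. The procedure was tested on simulated data whose noise followed brightness, as the variance trend assumes. That test therefore cannot check how far the calls depend on the trend. Named context genes were the up to 3 called genes of smallest p in each direction of each list (1 where none was called). The 3 genes nearest to the member called with the smallest p in each direction were also named. Members and lists were chosen with earlier results of these data known. Alternatives covered pseudocount, filter, normalization, variance prior, probe set choice, replicate block and leaving out each array. Where probe set choice was not itself varied, each gene kept the probe set that stood for it.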

Additional observations from a re-analysis of the deposited data

How the results depend on the processing

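The fall of DUSP6 kept its direction and its call in every alternative except 1 variance prior for all probe sets (adjusted p 0.189). Other filters, the single variance prior and the replicate block leave the log2 change of a probe set as it was, so direction could not turn in them. Of 507 log2 changes recomputed for members, their probe sets and named genes, 444 kept direction and were called in both fits or in neither. Another 56 lost and 2 gained the call, and 5 turned. These were DUSP1, DUSP8 on 206374_at and DUSP16 on 1563505_at without DMSO 2, the last also without shikonin 2, and MAP2K5 with the mean of its probe sets (0.055). With an array left out, their log2 changes ran from -0.12 to 0.28, from -0.95 to 0.29 and from -1.13 to 0.37, and none of these member probe sets was called.

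Members called lower numbered 3, and 1 to 3 with an array left out (1, DUSP6, without DMSO 2); members called higher stayed at 0. All genes called higher numbered 685 and lower 901, and 303 to 443 and 592 to 676 with an array left out. The higher calls were 350 with no filter, against 607 lower. With arrays centred on their medians, lower calls were 65.0% of all calls, against 56.8%. The numbers in DMSO and shikonin titles gave little sign of pairing. Differences of replicate 1 minus replicate 2 correlated at 0.0216 between the groups over the tested probe sets. With 2 arrays per group this cannot settle whether arrays were paired. A replicate block gave 1234 genes higher and 1324 lower, with the same 3 members lower. With a single variance prior, members and all genes in either direction and each context list stood at 0 calls.

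With an array left out, other dual-specificity phosphatases called higher numbered 0 to 1 and lower 0 to 1. In this list 1 rose with no filter, with centring on medians and without _x_at and _s_at probe sets. There 1 fell with probe set means, without _x_at and _s_at probe sets and with the replicate block. Of other phosphatases that act on MAP kinases, 0 to 1 rose and 1 to 2 fell with an array left out; 1 fell with probe set means, and 0 rose and 1 fell without _x_at and _s_at probe sets. MAP kinases called lower were 2 after quantile normalization and 2 with the replicate block, and MAP kinase kinases 0 with probe set means and 2 with the replicate block. With an array left out, 11 to 13 ERK-induced transcripts fell, and p38 and JNK transcripts numbered 0 to 1 higher and 3 to 4 lower. Without _x_at and _s_at probe sets, 8 of 15 tested ERK-induced transcripts and 1 of 8 tested p38 or JNK transcripts fell. With 1 array in a group, that array is assumed to vary like the other group. Detection calls were not used here, so values near the 40th percentile may not exceed background.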

Other observations

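A probe set of DUSP5P1, a pseudogene of DUSP5 that is not among the members and was chosen after its values were seen, read 284 and 275 in DMSO and 159 and 166 after shikonin. It was 1.68-fold lower (log2 change -0.75, 95% interval -1.14 to -0.36, limma adjusted p = 0.0273), while DUSP5 changed by 0.24 and was not called. Whether the probe sets of the gene and the pseudogene read each other's transcripts was not tested.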
